A study of Mus musculus with 4 samples.

Results

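A set of 10 genes that reactive glia and the acute-phase response are known for were followed through the 4 count tables: Lcn2, Serpina3n, Steap4, Cp, Tgm1, Crispld2, Cd44, Cd14, Ptx3 and Akap12, out of 24421 gene symbols counted. They were chosen by name for that role and selected on their lower counts in the same contrast that is described here, so their differences are given as a description with no test. The cells were neural stem cells from the cerebral cortex of C57BL/6J mouse embryos at embryonic day 17, grown for 1 day in medium with 10 ng/mL basic FGF and 10 ng/mL EGF, the mitogens that keep such cells dividing. Both groups carried floxed Prrc2b alleles (Prrc2bf/f). The 2 control libraries had no Cre, and the 2 knockout-labelled libraries had Nestin-Cre besides, a recombinase under regulatory sequence of the neural progenitor gene Nes, so deletion is limited to cells in which that sequence is or was active. The comparison addresses which transcripts change in cortical neural stem cell cultures when Prrc2b, a proline-rich coiled-coil protein gene, is to be removed.

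Astrocytes and their precursors answer injury, infection and cytokines with a reactive state, in which they make intermediate filaments, iron-handling proteins, protease inhibitors and secreted recognition molecules. Many of these proteins belong to the acute-phase response, which the liver mounts under interleukin-6 family cytokines and interleukin-1. In glia the same signals reach the genes through the shared receptor gp130 and STAT3, through NF-kB and through C/EBP factors. Dissociated and cultured glia often show part of this state without any injury to the animal.

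Counts assigned to genes came to 25936794 to 28263272 a library, and 3 counts, taken as the floor of detection, equal 0.106 to 0.115 CPM (counts scaled to a common library size), for counting error only. No label ties a replicate to its own embryo or culture. The p-values therefore measure the spread between libraries alone, and that spread may be technical. For the neural stem cell label, Sox2 stood at 445 ± 19.0 CPM (mean ± SD, n = 2) in control and 443 ± 0.753 in the other group. Nes stood at 630 ± 2.28 and 540 ± 0.279 CPM. Genes of astrocytes, neurons and the oligodendrocyte lineage were abundant too, with Aqp4 at 148, Map2 at 766 and Olig1 at 760 CPM in control. Sox2 and Nes therefore do not show a culture of progenitors alone. Prrc2b itself stood at 591 ± 4.24 and 574 ± 1.37 CPM (log2 fold change -0.04 ± 0.02 SE, adjusted p = 0.134), so its whole-gene count leaves the genotype label unchecked. The exon between the loxP sites is not named in the labels. Of the Y chromosome, Uty, Kdm5d, Eif2s3y and Ddx3y had 6.81 to 24.1 CPM in control and 0 counts in both knockout-labelled libraries, beside Xist at 1644 ± 40.6 and 2164 ± 63.9 CPM. Both control libraries thus held Y-linked transcripts and Xist, the transcript of the inactive X chromosome, as a pool of both sexes would. Genotype, Cre and the sex make-up of the libraries cannot be told apart in any value below. In bulk RNA, fewer cells of a type and less RNA per cell cannot be told apart either.

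All 10 genes passed the filter on low counts, and all 10 were lower in both knockout-labelled libraries than in either control library. By the same rule 32.5% of the 15012 tested genes had libraries that did not overlap with the knockout lower, and 32.4% with the knockout higher. The median log2 fold change of the 10 genes was -2.08, from -4.66 to -0.97, against a median of 0.0047 over all tested genes. At least 2-fold lower were 8 of them and at least 4-fold lower 5, where the shares of all tested genes at those folds were 2.21% and 0.506%. These shares describe genes that were picked for being low in this contrast, and nothing is read from the gap. Summed over the 10 genes, the level was 1238 and 1222 CPM in control replicates 1 and 2 and 420.9 and 420.46 CPM in the knockout-labelled libraries, 34.2% of control. Replicates of a group lay close together, with a ratio of replicate 2 to replicate 1 between 0.909 and 1.16 for every gene and group.

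**Figure D1:**
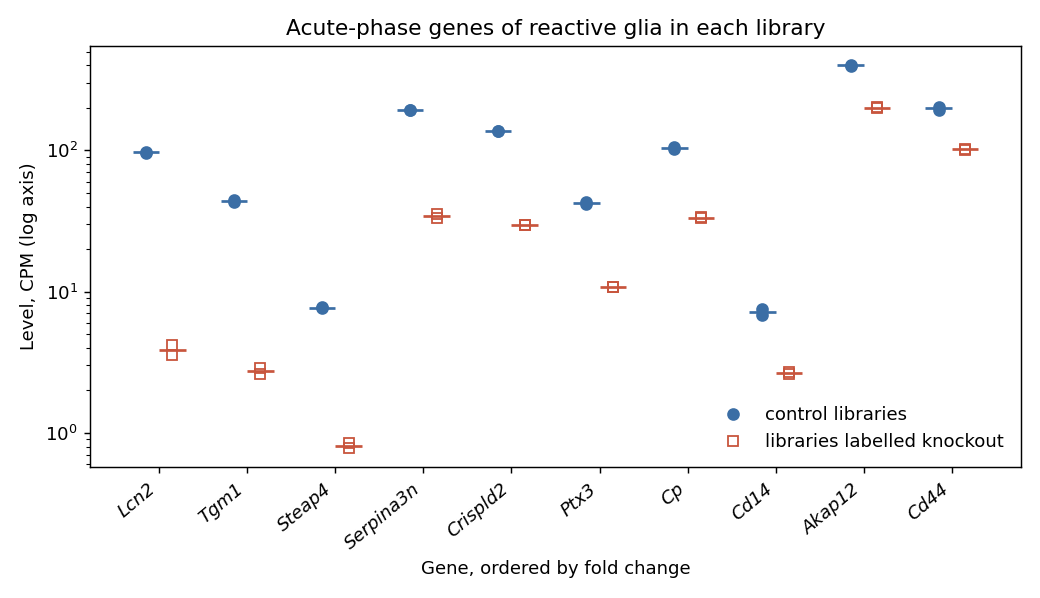
Level of each of the 10 genes in CPM, on a log axis, with genes ordered by fold change; filled circles are the 2 control libraries, open squares the 2 knockout-labelled libraries, and bars their means. The groups are apart for each gene, from 25.1-fold for Lcn2 to 1.95-fold for Cd44.

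The first 3 genes handle iron and copper at the cell surface or outside it. Lcn2 encodes lipocalin-2, which binds iron-laden siderophores and is among the most strongly induced proteins of reactive astrocytes. Its transcript stood at 96.2 and 98.1 CPM in the control libraries and at 3.57 and 4.16 CPM in the knockout-labelled libraries, from 2541 and 2765 against 101 and 108 counts. The lowest control library was thus 23.2-fold above the highest of the other group, and the log2 fold change of -4.66 ± 0.07 ranked 8 from the bottom of the 15012 tested genes. Lcn2 lies on the minus strand of chromosome 2 from 32384633 to 32388252 (mm10).

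Steap4, which encodes a metalloreductase that reduces ferric iron and copper, was scarce, with 7.80 and 7.59 CPM in control and 0.778 and 0.846 CPM in the knockout-labelled libraries. The latter rest on 22 counts in each library. Its log2 fold change was -3.24 ± 0.19, the largest standard error of the 10, and the gene lies on chromosome 5 from 7960457 to 7982213.

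Cp encodes ceruloplasmin, the copper-binding ferroxidase that lets iron leave cells and that astrocytes hold at their surface. It was present at 105 and 103 CPM in control and at 33.3 and 33.5 CPM in the knockout-labelled libraries, a log2 fold change of -1.64 ± 0.04. Both groups were tight, and the level left was 32.1% of control, far more than for Lcn2 (3.98%) or Steap4 (10.6%). Of the 5800 exonic bases of Cp (chromosome 3, 19957054 to 20009145), 108 overlap exons of Hps3 on the other strand.

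A further 4 genes encode proteins that are secreted or that crosslink proteins. Serpina3n, a serine protease inhibitor and one of the most used markers of reactive astrocytes, had 193 and 194 CPM in control and 35.4 and 33.2 CPM in the knockout-labelled libraries. Its log2 fold change came to -2.49 ± 0.04. Serpina3n sits in a cluster of close paralogs on chromosome 12 (104406729 to 104414329), and 6.9% of the 50-base stretches of its transcript also occur in other genes of that cluster. It held 98.6% to 99.3% of all counts given to the 11 Serpina3 genes in the files.

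Tgm1 encodes a transglutaminase that joins proteins through glutamine and lysine side chains, best known from skin and listed among genes that astrocytes induce after ischaemia. Its level was 44.5 and 43.1 CPM in control against 2.87 and 2.62 CPM, a log2 fold change of -3.99 ± 0.09 and rank 9 from the bottom, next to Lcn2. The gene lies on the minus strand of chromosome 14 from 55700009 to 55713926.

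Crispld2, a secreted cysteine-rich protein that binds lipopolysaccharide, stood at 137 and 136 CPM in control and at 29.6 and 29.7 CPM in the knockout-labelled libraries (log2 fold change -2.203 ± 0.042; chromosome 8, 119992438 to 120052793). Ptx3 encodes the long pentraxin 3, a soluble recognition protein made at sites of inflammation, which also binds matrix. Ptx3 had 41.6 and 42.8 CPM in control and 10.8 CPM in each knockout-labelled library, a log2 fold change of -1.96 ± 0.07 (chromosome 3, 66219910 to 66225805). For both genes the knockout-labelled libraries were nearly identical, and 21.7% of the control level was left for Crispld2 and 25.7% for Ptx3.

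The remaining genes encode receptors and a scaffold. Cd44 is the main receptor for the matrix sugar hyaluronan and marks both astrocyte precursors and reactive astrocytes. It had 204 and 193 CPM in control and 102.9 and 100.49 CPM in the knockout-labelled libraries, the smallest difference of the 10 genes (log2 fold change -0.97 ± 0.03; chromosome 2, 102811141 to 102901665). Akap12, which anchors protein kinase A and other kinases at the membrane, was the most abundant by CPM, with 402 and 397 CPM in control and 198.9 and 202 CPM in the other group (-0.99 ± 0.03; chromosome 10, 4266380 to 4359470). Cd44 and Akap12 thus kept 51.2% and 50.2% of their control levels, and none of the other 8 genes kept over 37.1%.

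Cd14, the co-receptor that passes lipopolysaccharide to TLR4, was scarce, with 7.50 and 6.81 CPM in control and 2.69 and 2.62 CPM in the knockout-labelled libraries (-1.43 ± 0.15; chromosome 18, 36725067 to 36726798). Its control libraries were the least alike of the 10 genes, with a ratio of 0.909, yet lay at least 2.53-fold above the other group. Microglia also make CD14. Their 14 marker genes summed to 11.8 and 13.1 CPM in control and 8.10 and 7.04 CPM in the knockout-labelled libraries. None of them was at 0 in all libraries. Cd68, at 3.90 and 3.72 CPM by group, held much of that sum and did not pass (adjusted p = 0.789). Over the 8 tested markers the median log2 fold change was -1.22, with 5 lower, 0 higher and 3 not passing. The part of microglia in the Cd14 difference was not tested.

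Levels of different genes can be set side by side once divided by exon length. In control the order in CPM per kb was Lcn2 (106 ± 1.49), Serpina3n (93.7 ± 0.375), Akap12 (63.1 ± 0.469), Cd44 (35.1 ± 1.34), Crispld2 (31.7 ± 0.18), Ptx3 (22.2 ± 0.444), Cp (17.9 ± 0.306), Tgm1 (14.6 ± 0.338), Cd14 (4.36 ± 0.294) and Steap4 (2.44 ± 0.0458). In the knockout-labelled libraries Akap12 led with 31.7 ± 0.399 CPM per kb, followed by Cd44 (17.985 ± 0.301) and Serpina3n (16.6 ± 0.743). Crispld2 came next with 6.88 ± 0.0032, then Cp (5.76 ± 0.0229) and Ptx3 (5.71 ± 0.0093), which lay too close to order given that merged exon lengths are approximate. Lcn2 had moved from the first to the seventh place, at 4.22 ± 0.45 CPM per kb, ahead of Cd14 (1.62 ± 0.0311), Tgm1 (0.911 ± 0.0586) and Steap4 (0.257 ± 0.0153). Akap12 accordingly made up 32.4% and 32.5% of the summed CPM of the 10 genes in control and 47.3% and 48.2% in the other group, whereas the share of Lcn2 was 7.77% and 8.03% against 0.849% and 0.988%.

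The sequence before the starts of the genes was searched for motifs of the factors named above and of AP-1. The genes were picked for being lower, so their shared direction is no ground to expect shared motifs. RefSeq promoters on GRCm38.p6, the same assembly as mm10, were read for 8 of the 10 genes, with 10 start sites. Akap12 had no entry. Cd14 was left out by its chromosome alone, and whether its window holds any of the motifs is not reported. The 250 bases before each start were read on both strands. The motifs were TTCNNNGAA for STAT factors, TTGCNNAA for C/EBP, TGANTCA for AP-1 and the standard NF-kB consensus. Among 32851 mouse start sites these occur in 7.02%, 9.56%, 6.75% and 3.9% of such windows. Those shares are per start site, while a gene below is counted if any of its start sites matched, so they are not on one scale. Of the 8 genes, 2 held a STAT match (Steap4 and Tgm1), 4 a C/EBP match (Lcn2, Steap4, Cp and Ptx3), 1 an AP-1 match (Cp) and 1 an NF-kB match (Steap4). Serpina3n, Crispld2 and Cd44 held none of these letters in that window. A match is a string of letters and not a shown binding site.

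Tgm1 and Steap4, which followed Lcn2 by fold change, are printed from base 250 to base 51 before the start, 5′ to 3′ on the strand of the gene, with motif letters in capitals. The Steap4 stretch is chr5:7960222-7960421 on the plus strand, with 2 NF-kB matches at its left end, then the STAT and the C/EBP match. The Tgm1 stretch is chr14:55713543-55713742 on the minus strand, with 2 STAT matches. It lies before the first of 2 listed start sites of Tgm1 and inside the annotated span of the gene. The window before the second start site held none of the motifs.
Steap4: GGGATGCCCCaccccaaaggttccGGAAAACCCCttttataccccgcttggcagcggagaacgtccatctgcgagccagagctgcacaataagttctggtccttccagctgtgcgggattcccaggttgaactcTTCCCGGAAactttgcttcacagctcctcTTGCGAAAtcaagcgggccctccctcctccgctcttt
Tgm1: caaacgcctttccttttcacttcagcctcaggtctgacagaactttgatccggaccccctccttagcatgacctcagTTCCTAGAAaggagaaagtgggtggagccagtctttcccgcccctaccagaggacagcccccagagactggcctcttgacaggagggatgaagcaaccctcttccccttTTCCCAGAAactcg

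For Lcn2 and Ptx3 only the C/EBP match with 10 bases on each side is shown, on the strand of the gene, because the Lcn2 window overlaps an exon of a longer isoform. The Lcn2 stretch is chr2:32387938-32387965 on the minus strand and the Ptx3 stretch chr3:66219820-66219847 on the plus strand. The capitals mark the match, which in Ptx3 reads on the opposite strand.
Lcn2: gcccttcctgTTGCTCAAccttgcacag
Ptx3: tggtttaacaTTGTGCAAcctcttcagc

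The other genes of the reactive state were then counted, in lists that leave out the 10 genes. Over all tested genes 33.1% passed the threshold (edgeR quasi-likelihood test, adjusted p under 0.05), 18.1% lower and 15.1% higher in the knockout-labelled libraries, or 2711 and 2263 genes. With upper quartile scaling the split turned to 2288 lower and 2939 higher. All 8 other genes that define reactive astrocytes of either kind fell, with a median log2 fold change of -1.44. Gfap, the astrocyte intermediate filament gene, fell from 869 ± 14 to 325 ± 3.50 CPM (-1.42 ± 0.02, adjusted p = 1.6e-34). The sphingosine phosphate receptor gene S1pr3 fell from 69.2 ± 0.596 to 18.2 ± 1.13 CPM and the metalloproteinase inhibitor gene Timp1 from 44.6 ± 0.758 to 14.9 ± 0.988 CPM. Vim, a filament gene of all glial progenitors, fell least, from 3003 ± 1.05 to 2416 ± 5.88 CPM (-0.31 ± 0.02, adjusted p = 1.5e-17).

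Reactive astrocyte genes are often split into a set induced by inflammation (A1) and a set induced by ischaemia (A2). Of 10 tested A1 genes 7 fell, 1 rose and 2 did not pass, with a median of -0.93. The glycosyltransferase gene Ggta1 fell from 21.4 ± 0.226 to 9.99 ± 0.0849 CPM, the immunoproteasome gene Psmb8 from 9.10 ± 0.387 to 3.15 ± 0.0046 CPM and the interferon-induced GTPase gene Gbp2 from 9.13 ± 0.158 to 3.51 ± 0.287 CPM. The one that rose was the elastic fibre gene Fbln5, from 10.2 ± 0.103 to 18.5 ± 1.10 CPM (0.85 ± 0.09, adjusted p = 1.8e-10). Of the 8 tested A2 genes besides Tgm1, Ptx3 and Cd14, 6 fell and 2 did not pass, with a median of -0.61. Tm4sf1 fell from 27.2 ± 0.907 to 7.52 ± 0.127 CPM, the prostaglandin synthase gene Ptgs2 from 2.88 ± 0.697 to 0.589 ± 0.0172 CPM, and Cd109 and Emp1 by 0.69 ± 0.04 and 0.29 ± 0.05 on the log2 scale. A difference between the A1 and A2 sets was not tested.

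**Figure D2:**
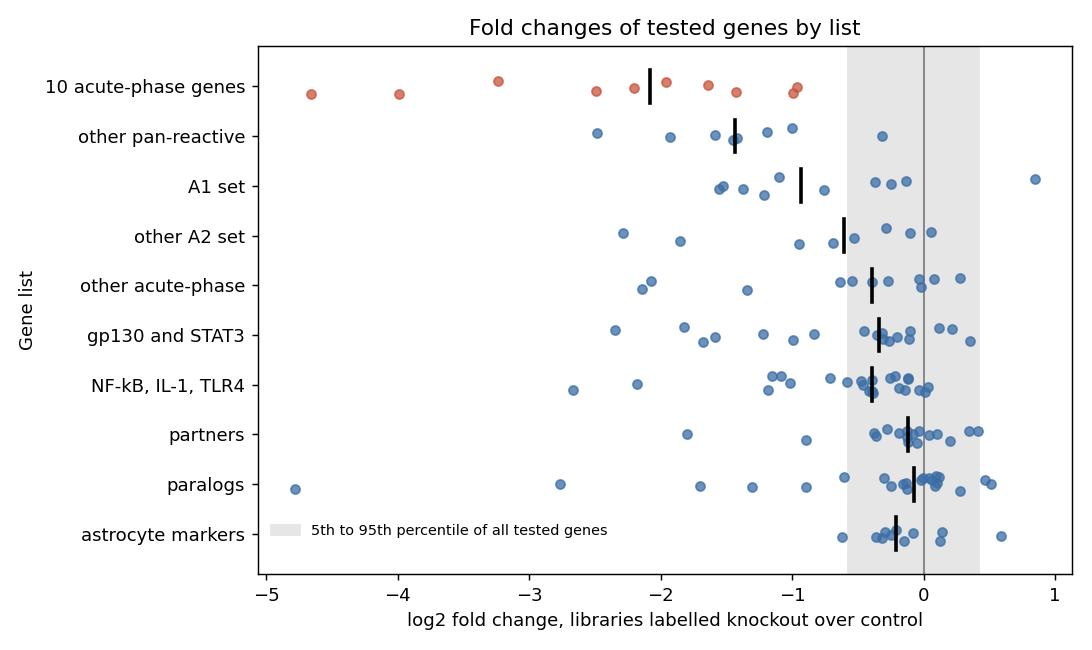
Log2 fold change of each tested gene (points, spread vertically for sight) by list, with list medians as black bars, a grey line at the median of all tested genes and a grey band from their 5th to their 95th percentile (-0.58 to 0.42). All 10 acute-phase genes (red) and 7 of the 8 other pan-reactive genes lie left of the band. Partners and paralogs (here, other genes of the same named families) are centred near 0.

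Acute-phase genes outside the 10, mainly of plasma proteins, were mostly silent in these cells. Of 31 listed genes 11 were counted often enough to test, and 6 had 0 counts in all libraries. The list was not split by whether the acute phase raises or lowers a gene, so a fall has no single meaning in it. Of the 11, 6 fell, 1 rose and 4 did not pass, with a median of -0.40. The complement genes C4b (77.3 ± 3.83 to 30.5 ± 2.56 CPM) and C3 (6.64 ± 1.16 to 1.57 ± 0.067 CPM) fell, as did the transferrin gene Trf (-0.55 ± 0.04) and the protease trap gene A2m (-0.27 ± 0.02). The single rise, named after its value was seen, was the metallothionein gene Mt1 (0.08 ± 0.03, adjusted p = 0.0117), a call lost in 3 settings: DESeq2 (0.0807), leaving out control replicate 1 (0.0952) or leaving out knockout replicate 2 (0.0876). The adjusted p lay in a range of 0.000803 to 0.0952 over 13 alternatives.

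Genes of the signalling pathways of the acute-phase response, among them feedback genes and targets of these pathways, were lower in part. Of 18 tested genes of gp130 and STAT3 signalling 11 fell, 2 rose and 5 did not pass (median -0.34). Cebpd, the C/EBP factor of the acute phase, fell from 79.5 ± 2.09 to 22.6 ± 2.2 CPM (-1.82 ± 0.05, adjusted p = 3.4e-26), and the NF-kB cofactor gene Bcl3 from 22.4 ± 1.93 to 4.42 ± 0.392 CPM. Socs3, the feedback inhibitor that STAT3 induces, fell from 43.9 ± 0.507 to 22.1 ± 0.736 CPM. The gp130 gene Il6st, the kinase gene Jak1 and Stat3 itself, named after their values were seen, fell less. Their log2 fold changes were -0.36 ± 0.04, -0.31 ± 0.03 and -0.20 ± 0.03. The receptor gene Osmr, listed among the pan-reactive genes and named after its value was seen, fell from 21.6 ± 0.469 to 7.90 ± 0.469 CPM. The 2 that rose, named after their values were seen, were the receptor gene Lifr (0.35 ± 0.04, adjusted p = 3.4e-08) and the kinase gene Jak2 (0.12 ± 0.03, adjusted p = 0.0076). The Jak2 call was lost with DESeq2 (adjusted p = 0.119) and without knockout replicate 1 (0.0883), with a lowest value of 0.000981 over 13 alternatives.

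Of 23 tested genes of NF-kB, interleukin-1, TNF and TLR4 signalling 18 fell, 0 rose and 5 did not pass (median -0.39). DESeq2 called 10 of them lower. Of the NF-kB subunit and kinase genes, Rela, named after its value was seen, fell by 0.18 ± 0.04 on the log2 scale. Nfkb1 (-0.12 ± 0.05, adjusted p = 0.0599) and Ikbkb (0.01 ± 0.04, adjusted p = 0.872), also named later, did not pass. Nfkbiz, the NF-kB cofactor needed for Lcn2 induction in other cells, fell from 61.2 ± 0.517 to 28.9 ± 2.18 CPM and the inhibitor gene Nfkbia from 58.2 ± 0.424 to 35.6 ± 3.65 CPM. The chemokine genes Ccl2 (4.24 ± 0.22 to 0.662 ± 0.065 CPM) and Cxcl1 (9.07 ± 1.09 to 2.00 ± 0.275 CPM) fell further. Of the partners that CD14 serves, Tlr4 fell from 2.16 ± 0.264 to 1.06 ± 0.145 CPM (adjusted p = 0.0016), a call lost with DESeq2 (0.0775, in a range of 0.0012 to 0.0775 over 13 alternatives). Ly96, which encodes the protein MD-2 that TLR4 pairs with, stood at 1.38 ± 0.296 and 1.17 ± 0.191 CPM and did not pass (adjusted p = 0.590).

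Receptors and matrix partners of the 10 proteins did not share one direction. Of 17 tested 6 fell, 2 rose and 9 did not pass (median -0.12). Slc22a17, which encodes a cell-surface receptor for lipocalin-2, rose from 345 ± 17.5 to 460.5 ± 16.6 CPM (0.42 ± 0.03, adjusted p = 6.4e-15), while the endocytic receptor gene Lrp2 stood at 5.58 ± 0.462 and 5.12 ± 0.765 CPM and did not pass (adjusted p = 0.571). Among ligands of CD44 and the enzymes that make them, the osteopontin gene Spp1 fell from 43.5 ± 0.693 to 12.6 ± 1.92 CPM and the hyaluronan synthase gene Has2 from 7.18 ± 0.121 to 3.87 ± 0.568 CPM. The other hyaluronan synthase genes did not pass: Has3 stood at 8.86 ± 0.321 and 9.46 ± 0.976 CPM (adjusted p = 0.520) and Has1 at 0.866 ± 0.221 and 0.750 ± 0.19 CPM (adjusted p = 0.728). Msn, whose protein moesin ties CD44 to actin, fell by 0.36 ± 0.02 on the log2 scale. The ferritin heavy chain gene Fth1 fell from 687 ± 5.85 to 529 ± 12.8 CPM. Tnfaip6, whose protein crosslinks hyaluronan together with pentraxin 3, had 16.6 ± 0.992 and 19.1 ± 0.899 CPM (0.20 ± 0.08, adjusted p = 0.0377), a rise that was lost in 4 of 13 alternatives: no low-count filter (0.0754), DESeq2 (0.338), and leaving out control replicate 2 (0.283) or knockout replicate 2 (0.246). The lowest adjusted p was 0.0168.

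Markers of several cell types moved in the same libraries. The 12 astrocyte markers outside the reactive lists summed to 3806 and 3779 CPM in control and 3236 and 3239 CPM in the knockout-labelled libraries, 85.4% of control, and 8 of 11 tested fell, 2 rose and 1 did not pass. Aqp4 fell by 0.62 ± 0.03 and Slc1a3 by 0.36 ± 0.02 on the log2 scale, while Fgfr3 rose by 0.59 ± 0.03. Slc1a3, which radial glia also express, gave 1481.5 and 1445.5 CPM of the control sums. In the knockout-labelled libraries it gave 1143.9 and 1139.2 CPM. The marker sum is thus no measure of astrocytes alone. Set against that sum within each library, the 10 acute-phase genes came to 32.5% and 32.3% in control and to 13.0% in each knockout-labelled library. The part of astrocyte number in the difference of the 10 genes was not tested. For Lcn2 the same ratio was 2.53% and 2.60% against 0.110% and 0.128%, and for Cd44 5.36% and 5.11% against 3.18% and 3.10%. Radial glial markers kept 96.5% of their control sum, but 2 of 8 tested rose, 2 fell and 4 did not pass. The Notch target gene Hes5 rose from 33.5 ± 2.07 to 62.1 ± 6.74 CPM and Hes1 by 0.15 ± 0.05 on the log2 scale, while Hopx fell from 45.4 ± 0.413 to 31.7 ± 0.759 CPM and Nes as given above. Neuronal markers stood at 115% of control, with 5 of 8 tested higher and 0 lower, and oligodendrocyte lineage markers at 110%, with 4 of 8 higher and 1 lower.

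Fibroblasts of the meninges and mural cells also make PTX3, CRISPLD2 and AKAP12. Their 15 markers summed to 277 and 270 CPM in control and 179 and 188 CPM in the knockout-labelled libraries, none of them was at 0 in all libraries, and 8 of 13 tested fell and 3 rose. Col3a1 fell from 65.9 ± 2.05 to 8.99 ± 0.612 CPM and Col1a1 from 52.1 ± 1.14 to 12.7 ± 1.19 CPM. The 3 that rose, named after their values were seen, were Ogn, from 1.70 ± 0.104 to 7.16 ± 0.226 CPM, Acta2, from 7.95 ± 1.01 to 11.75 ± 0.241 CPM, and Cspg4, also an oligodendrocyte lineage marker, from 71.2 ± 1.57 to 100.3 ± 2.93 CPM. Cspg4 gave 72.3 and 70.1 CPM of the control sums and 98.2 and 102.4 CPM of the knockout-labelled sums. The other markers together thus fell further than these sums show. Microglial markers fell for 5 of 8 tested, at low levels, with C1qb at 0.983 ± 0.266 and 0.146 ± 0.0435 CPM. Endothelial markers summed to 26.5 and 28.2 CPM against 20.98 and 22.2 CPM, and 2 of 9 tested fell and 1 rose, with a median log2 fold change of 0.13. Flt1 gave 11.3 and 12.6 CPM of the control sums and 4.14 and 4.31 CPM of the knockout-labelled sums. The other endothelial markers together were thus not lower. Choroid plexus markers were 638% of control, with Ttr risen from 182 ± 5.17 to 1281 ± 13.4 CPM and 7 of 8 tested higher. The part of these cells in the difference of any of the 10 genes was not tested. Neutrophils, which store lipocalin-2 and pentraxin 3, left almost no trace: 10 of their markers summed to 0.283 to 0.530 CPM in any library, and S100a8, Ltf and Retnlg had 0 counts in all 4. Erythroid markers summed to 0.426 to 0.946 CPM.

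**Figure D3:**
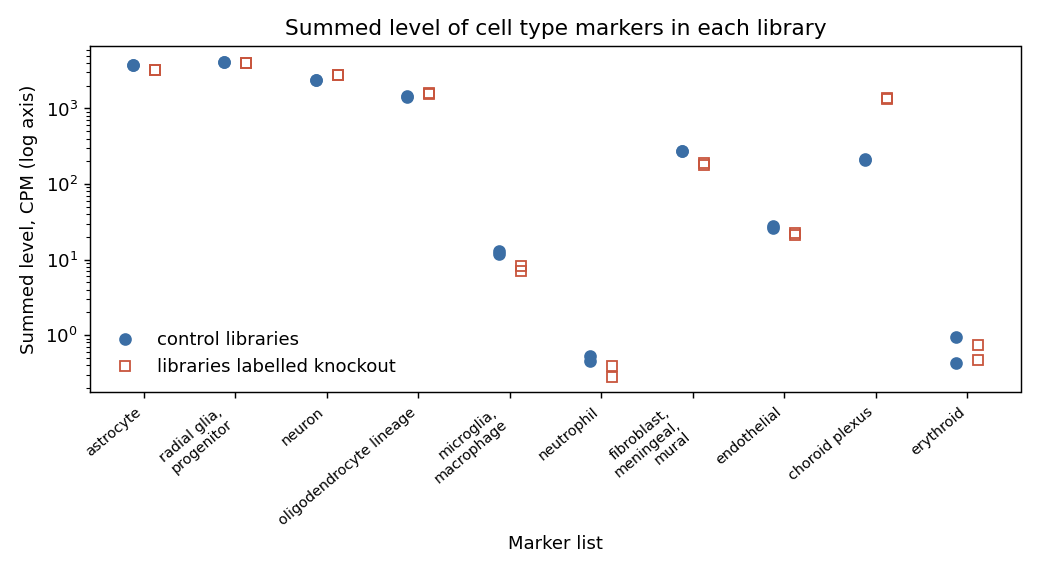
Summed CPM of each marker list in the 2 control libraries (filled circles) and the 2 knockout-labelled libraries (open squares), on a log axis. Cspg4 is counted in both the fibroblast and mural sum and the oligodendrocyte lineage sum. Astrocyte, fibroblast and mural, and microglial sums are lower in the knockout-labelled libraries, choroid plexus sums are higher, and neutrophil and erythroid sums are under 1 CPM.

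Lcn2 lies 150.1 kb beyond the end of Prrc2b on chromosome 2, the floxed gene, so the genes around it were examined too. Of 32 tested genes, Prrc2b among them, whose bodies reach within 500 kb of the middle of Lcn2, 8 fell, 4 rose and 20 did not pass, or 37.5% called against 33.1% of all tested genes. Their median log2 fold change was -0.02. The smallest p belonged to the neighbour 1110008P14Rik, the nearest of them by the distance between gene middles, which fell from 63.1 ± 2.61 to 39.7 ± 1.18 CPM (-0.67 ± 0.05, adjusted p = 2.4e-14). Slc25a25, a mitochondrial carrier gene 46.5 kb away by the same measure, fell by 0.47 ± 0.04 and Fam129b by 0.50 ± 0.05 on the log2 scale. The largest fall among these neighbours was -2.56 ± 0.42, of the laminin chain gene Lamc3, which had 48 and 36 counts in control and 12 and 2 in the other group, a gene singled out after its value was seen.

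**Figure D4:**
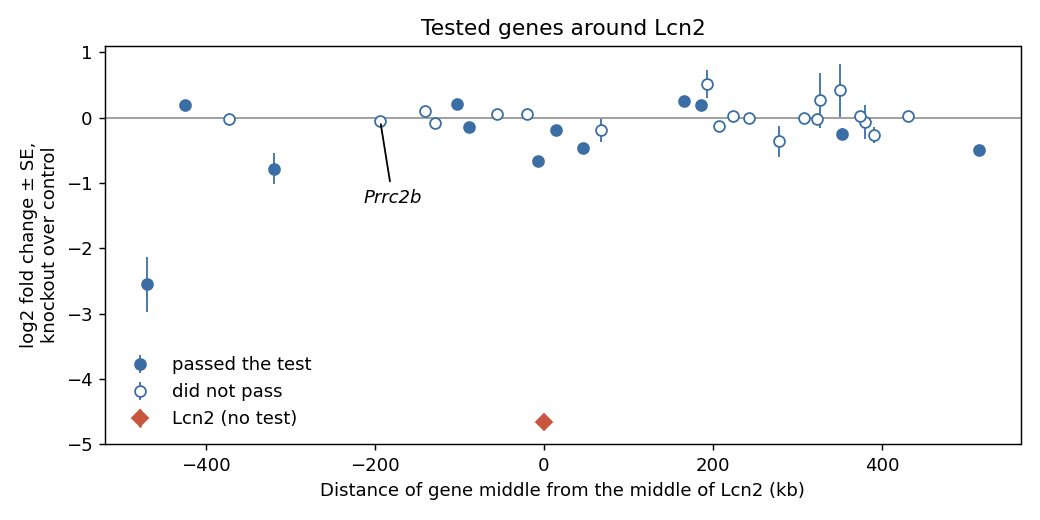
Log2 fold change ± SE of the 32 tested genes around Lcn2 against the distance of their middle from that of Lcn2 in kb; filled points passed the test, open points did not, and the diamond is Lcn2. All 32 neighbours lie above Lcn2 (-4.66), and Prrc2b lies at -0.04.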

How the data were processed

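Poly(A) RNA of 4 libraries, 2 control and 2 labelled knockout by their titles, was read from 1 count table each. The authors deposited unnormalized counts for each gene symbol; HISAT2 2.2.1, HTSeq 0.12.4, DESeq2 1.26.0 and the mm10 build are listed in the submitters' processing notes. The libraries mark the strand by dUTP, per the labels' protocols, but neither the strand setting of the counting nor the annotation is named there, so antisense and overlapping genes cannot be told apart with certainty. The 5 summary lines (25.2% to 26.1% of entries) were left out.

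The comparison used edgeR 4.0.16 (R 4.3.3): filterByExpr, scaling by the trimmed mean of M values, a quasi-likelihood F test with legacy off, and Benjamini-Hochberg adjustment over 15012 genes at 0.05. CPM use the scaled library sizes, and each standard error is the absolute log2 fold change divided by the root of F. Exon lengths and positions came from GENCODE M21 on GRCm38, which held 95.7% of the symbols, and promoters from RefSeq on GRCm38.p6. With 2 against 2 libraries no permutation test of a single gene was run. The steps were tested on simulated counts.

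The 10 genes, the lists, tests and alternatives were chosen with earlier results of these data known. Named genes are mostly up to 4 tested genes of smallest p in each list, and up to 3 in each marker list and around Lcn2. Receptors or ligands of the 10 proteins are named too. Some of the others, but not all, are said to be chosen later. Not every named gene was rechecked under the alternatives listed next. Alternatives were other scalings (relative log expression, upper quartile or total count), other low-count filters (none, or 1 CPM in 2 libraries), DESeq2 1.42.0, limma 3.58.1 voom, the legacy fit, a replicate block and leaving out each library.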

Additional observations from a re-analysis of the deposited data

How the results depend on the processing

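Each of the 10 genes was lower in the knockout-labelled libraries under all 13 alternatives; the log2 fold change ran from -4.76 to -4.55 for Lcn2, from -3.30 to -3.18 for Steap4 and from -1.005 to -0.93 for Cd44. The median of -2.082 became -2.056 with upper quartile scaling and -2.075 with total count scaling, and ran from -2.09 to -2.076 when a library was left out. DESeq2 called 960 genes higher and 1548 lower over the whole table; leaving out a library gave 1738 to 1843 higher and 2249 to 2442 lower. The cause was not tested.

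With DESeq2 0 other acute-phase genes, 1 gp130 gene and 1 partner gene were higher and 10 NF-kB genes lower. Without a low-count filter 1 partner was higher. Leaving out a library gave 0 to 1 higher acute-phase genes, 1 to 3 gp130 genes and 1 to 2 partners. Of 69 genes checked beside the 10, 63 kept their call and direction in each alternative that tested them, 12 of the 13 for C1qb and C1qc and all 13 for the others. The log2 fold change of Ly96 ran from -0.431 to 0.009448 when a library was left out, changing sign without control replicate 1, and that of Lrp2 from -0.2832 to 0.02318, changing sign without knockout replicate 2.

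Samples of the 2 groups share replicate numbers that no label ties to a shared animal or day. Replicate differences in control and knockout had a correlation of 0.0041 over 15012 genes, and the replicate block gave 2443 higher and 2881 lower genes. Among other genes of the named families of the 10 genes, 2 were higher with the replicate block, upper quartile scaling or total count scaling, against 1. Of the 10 genes Steap4 had the fewest counts, 22 in each knockout-labelled library. Some other values rest on fewer: in those libraries C1qb had 5 and 3 counts, Lamc3 12 and 2, and Serpina3i 0 and 2.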

Other observations

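Genes of the same named families as the 10 genes followed them in part. The Akap genes are grouped by the binding of protein kinase A, and their relation to Akap12 by sequence was not checked. Of 39 genes of these families 22 were counted often enough to test. Of those, 11 fell, 1 rose and 10 did not pass, with a median log2 fold change of -0.07. The neuronal pentraxin gene Nptx2, of the family of Ptx3, fell from 87.4 ± 4.11 to 57.4 ± 1.08 CPM, and the kinase anchor gene Akap6 from 114 ± 0.18 to 92.4 ± 1.86 CPM. The lipocalin family gene Ptgds, a prostaglandin D synthase, rose from 27.7 ± 1.01 to 38.4 ± 2.23 CPM (0.47 ± 0.06, adjusted p = 2.6e-08), against the direction of Lcn2. Serpina3i had 30 and 32 counts in control and 0 and 2 counts in the knockout-labelled libraries. Serpina3h, named after its value was seen, had 28 and 42 counts against 5 and 5. Serpina3i was not among the genes that share 50-base stretches with Serpina3n. Its sharing with the rest of the family was not checked.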
